A study of Mus musculus with 33 samples.

Results

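Transcripts of kidney tubule epithelium were followed through 33 RNA-seq libraries of sorted dendritic cells and macrophages. The set holds 33 genes, named one by one as tubule or epithelial genes and not taken from a test in these libraries. All 33 were found among the 24054 gene symbols counted, and 31 of them had enough reads to be tested. Cubn and G6pc were not tested, and both were at or near 0 reads throughout. By known site of expression, 8 genes belong to the thick ascending limb and distal tubule, 9 to the proximal tubule, 6 to the collecting duct or to epithelial structure, 5 to several segments, and 5 were not assigned to a segment.

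All libraries came from C57BL/6 mice aged 10 weeks with the genotype Clec9a-Cre/Cre Rosa-YFP/YFP, so every group, spleen included, carries the same alleles and YFP marks cells with a history of Clec9a expression. From the spleen, red pulp macrophages (RPM; autofluorescence+ F4/80+ YFP-), cDC2 (CD11b+ YFP+) and cDC1 (CD24+ CD205+ YFP+) were sorted, with 3 libraries each. Kidney cells were CD45+ Ly6C- MHCII+. Among them, CD64+ cells were either F4/80hi CD11blow (YFP- and YFP+, 3 libraries each) or F4/80low CD11bhi (YFP-, 2 libraries; YFP+, 5 libraries), while CD64- CD11c+ YFP+ cells gave cDC2 (CD11b+, 5 libraries) and cDC1 (CD24+, 6 libraries). No gate selects epithelial cells, and the kidney gates require CD45, a protein of blood-derived cells. Spleen has no tubules, so its 9 libraries gave the level at which each gene was seen away from the kidney.

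The nephron is a chain of epithelial segments. The proximal tubule, which makes up most of the kidney cortex, reabsorbs filtered phosphate, protein and glucose through products such as Slc34a1, Lrp2 and Cubn. The thick ascending limb secretes uromodulin (Umod) and takes up salt through the cotransporter Slc12a1, and the distal convoluted tubule does so through the thiazide-sensitive cotransporter Slc12a3. Immune cells lie between and beneath these epithelia.

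Promoters of 3 of these genes are shown because the first 2 were abundant in several kidney populations and the last was not. RefSeq promoters (GRCm38.p6) were found for 26 of the 33 genes, and the 250 bases before the start site were searched on both strands for GTTAAT, the half-site of the HNF1 factors of tubule epithelium, and for TATAAA, the TATA box. Capitals mark either motif or its reverse complement; Umod lies at chr7:119479263-119479512 on the minus strand, Slc12a3 at chr8:94328958-94329207 and Slc34a1 at chr13:55399398-55399647, both on the plus strand.
Umod: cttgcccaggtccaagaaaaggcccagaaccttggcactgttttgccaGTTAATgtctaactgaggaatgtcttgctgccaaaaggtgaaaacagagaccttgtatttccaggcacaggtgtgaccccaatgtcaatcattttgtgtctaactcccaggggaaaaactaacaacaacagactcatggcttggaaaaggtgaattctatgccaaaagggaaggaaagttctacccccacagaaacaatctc
Slc12a3: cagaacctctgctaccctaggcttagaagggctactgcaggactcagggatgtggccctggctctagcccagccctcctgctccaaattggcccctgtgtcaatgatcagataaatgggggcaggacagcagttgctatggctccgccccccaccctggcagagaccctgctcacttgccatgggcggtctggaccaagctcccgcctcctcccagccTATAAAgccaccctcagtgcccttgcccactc
Slc34a1: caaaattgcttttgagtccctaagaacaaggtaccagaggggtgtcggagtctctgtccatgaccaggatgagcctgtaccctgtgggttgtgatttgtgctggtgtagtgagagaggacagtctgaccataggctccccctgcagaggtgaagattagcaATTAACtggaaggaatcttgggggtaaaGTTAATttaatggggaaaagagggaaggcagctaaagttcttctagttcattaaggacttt
GTTAAT was present in 5 of the 26 promoters (19.2%), those of G6pc, Miox, Pck1, Slc34a1 and Umod, and in 7.49% of 27025 promoters of the same length. TATAAA was present in 4 of 26 (15.4%), among them Slc12a3, and in 14.33% of all promoters. Of the 5 genes with the half-site, Umod had a mean of 82.05 CPM over the 24 kidney libraries and the other 4 had means of 0.0622 to 1.77 CPM.

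Between 8729224 and 23000575 reads per library fell in genes, and levels are given as CPM, read counts scaled to a common library size with TMM factors, unless named otherwise. Library names begin with GS (21 libraries) or BS (12), a prefix that the labels do not explain. Every CD11bhi library begins with BS and every F4/80hi or spleen library with GS, while kidney dendritic cells have some of each. Of all reads, 22.6% to 64.0% fell outside the gene counts, with the highest share in CD11bhi YFP+ replicate 4. In 7 libraries, those with the code SR17_017 in their name, Y-linked reads outnumbered Xist, as in male cells, and in the other libraries they did not. These 7 are all GS libraries. They include kidney cDC1 replicate 4, kidney cDC2 replicate 3 and replicate 1 of both F4/80hi classes. Sex, read in this way, is thus not balanced over the prefix, and its part in the results was not tested. Defining markers were read against the gates: the F4/80 gene (listed as Emr1) had a mean of 2203 CPM in F4/80hi YFP- cells and 2.68 in kidney cDC1, and the cDC1 receptor gene Xcr1 had 921.6 in kidney cDC1 and 5.12 in kidney cDC2. CD11bhi cells had less of the F4/80 gene, with means of 171.8 CPM (YFP-) and 193.4 CPM (YFP+), and as much Cd209a, a cDC2 marker, as kidney cDC2 (3773 and 4136 against 3845 CPM). Kidney cDC1 replicate 4 stood apart in its tubule genes. The counts of calls in kidney against spleen cDC1 and for the prefix are given with and without it. For several genes the range of the other cDC1 libraries is given too. Fitted folds, their medians, group means and correlations that use kidney cDC1 include this library. No label says whether libraries of a group come from separate animals, so the p-values measure only the spread between these libraries.

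Tubule transcripts were found in every kidney population, and were most abundant in F4/80hi cells. Napsa, an aspartic protease that was high in dendritic cells of both organs, made up most of the raw sum in kidney dendritic and CD11bhi cells, and the sums that follow leave it out; this was chosen after its spleen level was seen. The other 32 genes summed to 1998 ± 790 CPM (SD, n = 3) in F4/80hi YFP- libraries (1111, 2624 and 2260) and to 1661 ± 1262 CPM (n = 3) in F4/80hi YFP+ libraries (1306, 614 and 3063). They summed to 479 ± 498 CPM in kidney cDC2 (n = 5; 77.8, 124, 223, 735 and 1236) and to 351 ± 623 CPM in kidney cDC1 (n = 6; lowest 50.0, median 104, highest 1621). CD11bhi cells had 116 and 78.6 CPM in the YFP- libraries and 65.8 to 167 CPM in the 5 YFP+ libraries. Spleen libraries ranged from 43.6 to 87.6 CPM in RPM, from 27.2 to 40.7 in cDC2 and from 14.5 to 14.9 in cDC1. All F4/80hi libraries lay above all spleen libraries, whereas the kidney dendritic cell libraries spanned the range from the RPM level to the F4/80hi level. All kidney dendritic cell libraries lay above all spleen dendritic cell libraries. Gpx3, with a mean of 60.9 CPM in RPM, made up most of the mean RPM sum of 71.2 CPM. Across neighbouring kidney groups the libraries overlapped: F4/80hi YFP- with YFP+, F4/80hi YFP+ with cDC2, and cDC2 with cDC1 and CD11bhi cells. Libraries are bulk samples, in which fewer cells carrying a transcript and less of it per cell cannot be told apart.

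**Figure D1:**
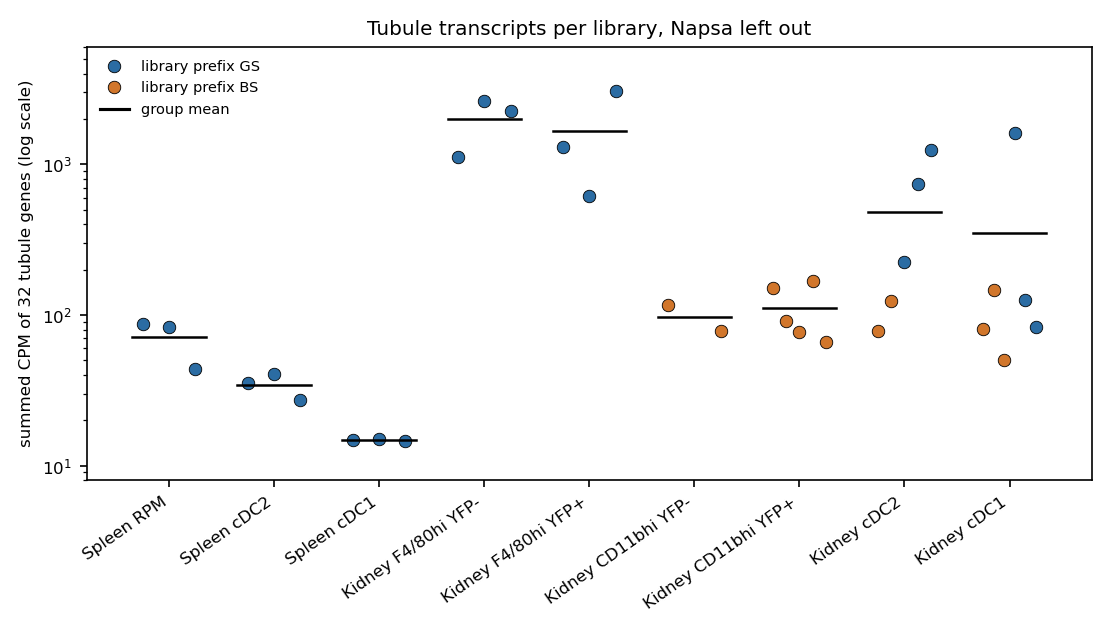
Summed level of 32 tubule genes in each library (points, CPM on a log axis), by population, coloured by library prefix, with the group mean as a line. F4/80hi libraries lie between 614 and 3063 CPM, spleen cDC1 libraries between 14.5 and 14.9 CPM, and kidney cDC1 has a lone library at 1621 CPM.

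Of the 33 genes, 23 stayed under a mean of 1 CPM in each spleen group, and 9 (Defb1, Wfdc15b, Cxcl14, Pvalb, Aqp3, Miox, Pck1, Lrp2 and G6pc) had no read in any spleen library. The 23 summed to 0.361 to 3.42 CPM per spleen library and to 15.4 to 1372 CPM per kidney library; because they were chosen for a low spleen level, their low spleen sum is a description. The other 10 genes were seen in spleen cells. Napsa had 1158 ± 82.1 CPM in spleen cDC2 and 577 ± 46.2 in spleen cDC1. Gpx3, a secreted glutathione peroxidase, had 60.9 ± 24.7 CPM in RPM and 0.451 ± 0.141 in spleen cDC2. Epcam, an epithelial adhesion molecule, had 17.2 ± 6.49 CPM in spleen cDC2. Slc12a3 had 6.30 ± 1.42 CPM in spleen cDC1 and 4.28 ± 0.971 in spleen cDC2, and the lactate dehydrogenase subunit Ldhb had 5.04 ± 0.713 in spleen cDC2. The highest spleen mean was 2.43 CPM for Fxyd2, 2.40 for Aqp1, 1.75 for Egf, 1.54 for Krt7 and 1.47 for Atp1b1. Aqp1, a water channel, reached its spleen level in RPM and had 0 to 6.06 CPM in kidney libraries.

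Against spleen RPM, 24 of the 31 tested genes were higher in F4/80hi YFP- cells and 0 were lower (edgeR, adjusted p under 0.05 and at least 1 on the log2 scale). Of all 14258 genes tested, 20.1% were called, 11.1% as higher and 9.02% as lower in the kidney cells. A gene with reads in F4/80hi cells and none in the spleen passed the low-count filter through the group where it is high, so the count describes the list. The median log2 fold of the 31 genes was 7.69, or 6.78 with genes without spleen reads set to their lower bound, against 0.03 over all genes. The fitted fold was above 0 for 28 of the 31 genes and below 0 for 3. Among those 3, Aqp1 had a mean of 0.145 CPM in F4/80hi YFP- cells and 2.40 CPM in RPM. All 8 thick ascending limb and distal genes and all 5 genes of several segments were called, as were 4 of 6 collecting duct and epithelial genes, 3 of 7 tested proximal genes and 4 of 5 unassigned genes. In 19 of the 24 the call was kept in each of 15 alternatives; Fbp1, Krt18, Krt8, Miox and Pck1 lost it in at least 1.

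Uromodulin, the most abundant protein of normal urine, had 166.8, 452.9 and 169.7 CPM in F4/80hi YFP- libraries and 131.3, 39.5 and 206.9 CPM in YFP+ libraries. In RPM it had 1 read over the 3 libraries against 10998 in F4/80hi YFP- libraries, a ratio of mean Umod CPM of 8980 (95% exact Poisson interval 1612 to 354700, counting error only). Egf, the epidermal growth factor precursor made in the distal nephron, had 140.4, 374.5 and 367.5 CPM in YFP- and 181.9, 49.1 and 451.0 CPM in YFP+ libraries, and was higher than in RPM by 7.37 ± 1.37 (log2 fold ± SE, adjusted p = 0.00013). The sodium chloride cotransporters were both present: Slc12a3 had 123.6, 255.2 and 224.0 CPM in YFP- libraries (9.89 ± 1.51 above RPM, adjusted p = 8.2e-06), and Slc12a1 had 44.8, 129.3 and 117.7 CPM (9.89 ± 2.38, adjusted p = 0.0025). Neither cotransporter's F4/80hi libraries overlapped those of RPM.

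Calb1, the calcium-binding calbindin of the distal convoluted and connecting tubule, had 54.3, 120.0 and 139.2 CPM in F4/80hi YFP- libraries and no read in RPM, at least 1512-fold higher when RPM is set to 3 counts over the group. Pvalb, the parvalbumin of the early distal convoluted tubule, was lower, at 4.86, 30.9 and 10.7 CPM, and also had no RPM read. Klk1, tissue kallikrein of the connecting tubule, had 104.6, 114.8 and 335.2 CPM. Klk1 and the kininogen gene Kng2 have near-identical copies in the mouse genome, so how their reads were split is uncertain. Fxyd2 and Atp1b1 encode the gamma and beta subunits of the sodium pump. Fxyd2 had 92.8, 304.4 and 222.9 CPM (6.78 ± 0.82 above RPM, adjusted p = 1.9e-07) and Atp1b1 had 70.7, 162.6 and 145.8 CPM (9.05 ± 1.63, adjusted p = 8.3e-05). For each of the genes named here, replicate 1 held the lowest of the 3 YFP- values, as it did for the sum.

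On a scale per transcript length (TPM), the order within F4/80hi YFP- libraries was led by Fxyd2 at 504 ± 258 TPM (SD, n = 3) and Klk1 at 498 ± 390, followed by Ldhb at 153 ± 63.6, Wfdc15b at 145 ± 106, Umod at 145 ± 85.0 and Defb1, an epithelial defensin, at 111 ± 68.0. The gap between neighbours in this order was smaller than the SD of the higher one. Wfdc15b, Kng2, Sfrp1 (a secreted Wnt inhibitor), Sostdc1 (a secreted BMP and Wnt antagonist) and Cdh16 (the kidney cadherin) had mean levels of 34.04 to 62.6 CPM in these libraries.

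The proximal tubule genes did not share these levels. Without Gpx3, the other 8 summed to 7.22 ± 8.78 CPM in F4/80hi YFP- libraries, 5.82 ± 3.79 in YFP+ libraries, 5.40 ± 1.18 in kidney cDC2, 3.28 ± 2.73 in kidney cDC1, 8.63 ± 3.11 in CD11bhi YFP+ and 15.5 ± 11.7 in CD11bhi YFP- cells, against 2.46 ± 2.34 in RPM. The thick ascending limb and distal genes summed to 1194 ± 468 CPM in the same F4/80hi YFP- libraries. Slc34a1, the phosphate transporter of the proximal brush border, had 0.583, 0.665 and 2.55 CPM there, and the endocytic receptors Lrp2 (megalin) and Cubn (cubilin) reached at most 0.978 and 0.413 CPM in any F4/80hi library. The highest Slc34a1 value, 14.8 CPM, came from CD11bhi YFP- replicate 1, which also had the highest Miox value, 8.88 CPM; Miox encodes the inositol oxygenase of the proximal tubule. The other CD11bhi YFP- library had no Slc34a1 read and 0.250 CPM of Miox. Lrp2 was highest in CD11bhi YFP+ replicate 4, at 5.01 CPM. Of the water channels of the collecting duct, Aqp2 stayed between 0 and 3.78 CPM in all kidney libraries.

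**Figure D2:**
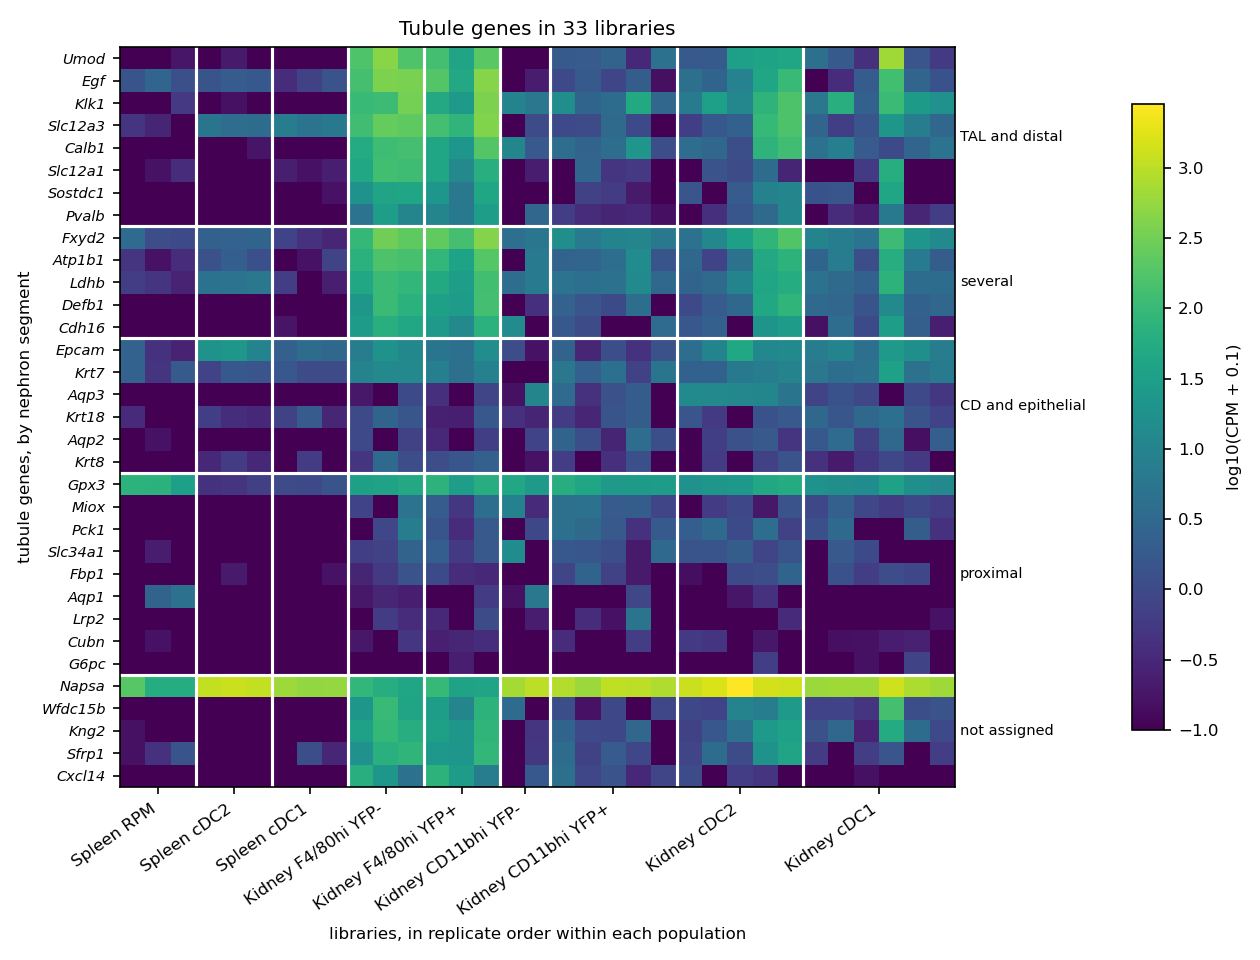
Level of each tubule gene (rows, grouped by nephron segment) in each library (columns, grouped by population), as log10(CPM + 0.1). Thick ascending limb, distal and multi-segment genes are high in all 6 F4/80hi libraries and in single kidney dendritic cell libraries, while the proximal rows below Gpx3 stay low.

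In kidney cDC2 against spleen cDC2, 23 of the 31 genes were higher and 0 lower, where 18.8% of all genes were called, 11.9% as higher and 6.9% as lower. The median log2 fold was 6.41, or 4.53 with genes without spleen reads at their bound, against 0.13 over all genes. With the library prefix in the model, these folds refer to the GS libraries. All 8 thick ascending limb and distal genes were called and 4 of 7 proximal genes. Fxyd2 had 4.73, 12.1, 34.5, 83.1 and 177.7 CPM in the 5 kidney libraries and 2.24, 2.45 and 2.60 in the spleen (5.17 ± 0.75, adjusted p = 5.2e-06). Klk1 had 7.11, 33.1, 11.3, 78.7 and 162.7 CPM against 1 read in spleen cDC2, a ratio of mean CPM of 3153 (95% exact Poisson interval 566 to 124500). Slc12a3 had 0.573, 1.61, 2.34, 97.3 and 165.5 CPM, so that only replicates 4 and 5 exceeded the 3.60 to 5.39 CPM of spleen cDC2; the fitted fold was 3.92 ± 1.03 (adjusted p = 0.0048), and its call was lost on the log2(TPM + 1) and log2(TPM + 0.1) scales. Gpx3 rose from 0.350 to 0.612 CPM in the spleen libraries to 18.2 to 54.9 CPM in the kidney libraries (6.41 ± 0.55, adjusted p = 5.3e-10). The call was kept in all 18 alternatives for 15 of the 23 genes.

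In kidney cDC1 against spleen cDC1, 20 of the 31 genes were higher and 0 lower, where 11.1% of all genes were called, 6.66% as higher and 4.45% as lower. The median log2 fold was 6.73, or 4.49 with the bounds, against 0.12 over all genes. As in cDC2, the fitted folds refer to the GS libraries. Umod had 4.27, 1.69, 0.299, 665, 1.40 and 0.472 CPM in the 6 kidney libraries and no read in spleen cDC1. Replicate 4 held nearly all of it, and also had the highest values of Egf (127.7 CPM), Wfdc15b (135.7), Slc12a1 (59.8), Kng2 (55.9) and Sostdc1 (41.0). The 5 other libraries had at most 2.79 CPM of Egf and 3.67 of Kng2. Without kidney cDC1 replicate 4, the count fell to 13 genes; without spleen cDC1 replicate 2 it was 12, and without spleen replicate 3 it was 12. The 10 genes whose call was kept in all 19 alternatives were Atp1b1, Defb1, Fxyd2, Gpx3, Klk1, Kng2, Krt7, Ldhb, Umod and Wfdc15b. Fxyd2 had 4.90 to 20.8 CPM in the 5 libraries besides replicate 4 and 0.198 to 0.688 in the spleen. Its fitted fold, with replicate 4 in the fit, was 7.08 ± 0.91 (adjusted p = 1.8e-06). Mean Fxyd2 in kidney cDC1 was 49.3 CPM in GS libraries, which hold replicate 4, and 7.49 CPM in BS libraries. Gpx3 had 12.6 to 35.2 CPM in the kidney and 0.856 to 1.32 in the spleen (4.49 ± 0.49, adjusted p = 1.3e-07).

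**Figure D3:**
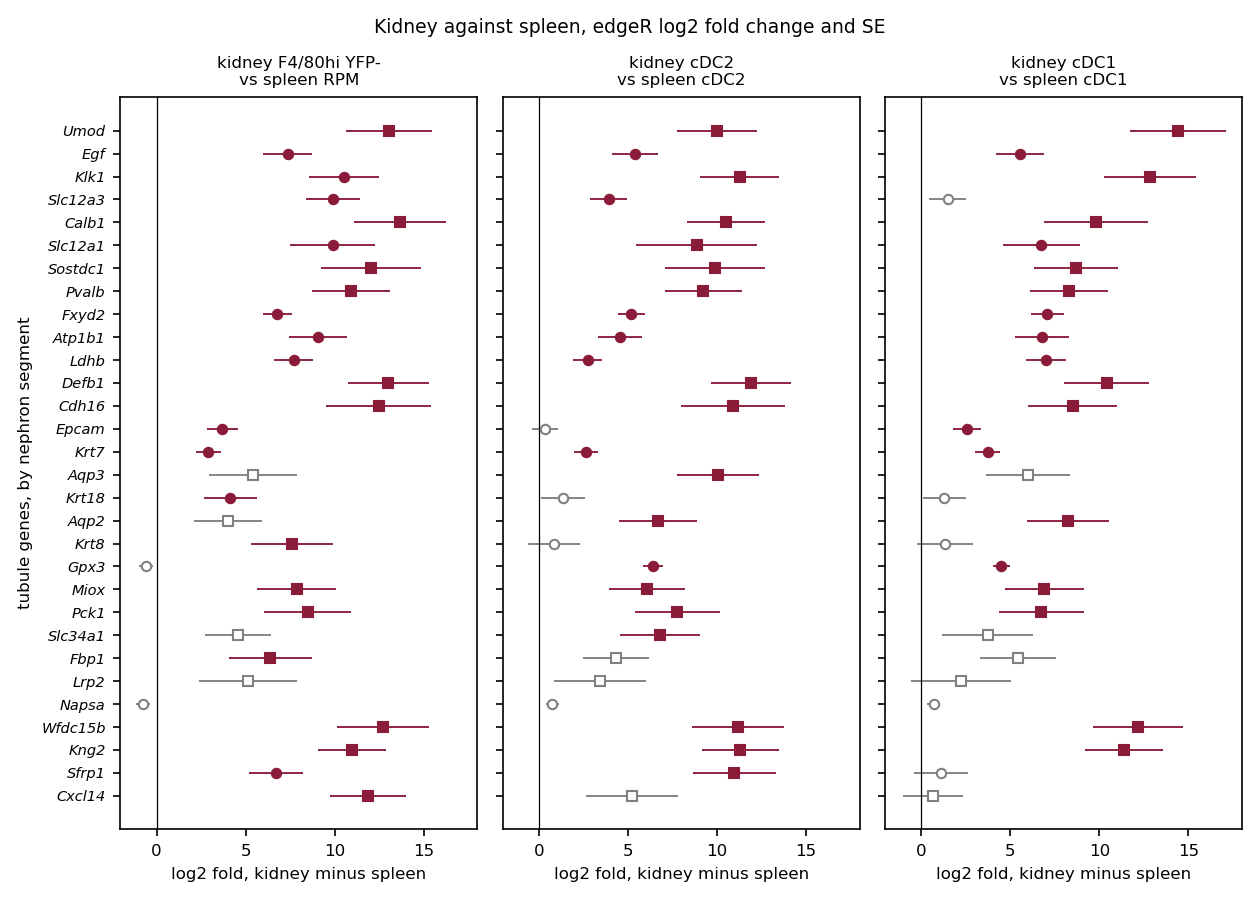
Fitted log2 fold change of each tested tubule gene, kidney minus spleen (edgeR; bars are the SE), for 3 pairs of populations; filled symbols passed the test. Aqp1 is left out. Its mean was lower in F4/80hi YFP- cells (0.145 CPM) than in RPM (2.40 CPM). Squares mark genes with 3 reads or fewer over the spleen group, whose fitted size depends on the fit. The distal rows lie far to the right in F4/80hi cells, while Gpx3 and Napsa lie near 0 there.

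Among CD11bhi cells the genes that led in F4/80hi cells were low. Umod had no read in either YFP- library and 0.223 to 4.57 CPM in the 5 YFP+ libraries, Egf had at most 2.002 CPM and Slc12a3 at most 3.34 CPM. Klk1 had 10.2 and 5.81 CPM in YFP- and 2.66 to 50.3 CPM in YFP+ libraries. Calb1 had 11.04 and 1.69 CPM in YFP- and 1.05 to 20.7 CPM in YFP+ libraries, where replicate 4 was highest for both genes. Fxyd2 had 4.21 and 5.63 CPM in YFP- and 6.33 to 16.5 CPM in YFP+ libraries, Atp1b1 0 to 14.6 CPM and Ldhb 3.11 to 13.7 CPM over all 7. Kidney cDC1 held Calb1 at 0.900 to 8.41 CPM, with the lowest value in replicate 4, and Klk1 at 2.27 to 108.7 CPM. In kidney cDC2, Umod had 1.67, 1.76, 32.98, 38.2 and 43.5 CPM, Egf 4.39, 2.59, 9.53, 42.8 and 104.2 CPM, and Calb1 3.87, 2.80, 1.08, 79.5 and 123.2 CPM, so that replicate 3 was near the highest for Umod and lowest for Calb1.

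Ldhb had 45.3, 108.2 and 88.6 CPM in F4/80hi YFP- libraries, 51.0, 31.1 and 128.1 CPM in YFP+ libraries and 2.48, 3.42, 10.2, 41.2 and 57.7 CPM in kidney cDC2. Atp1b1 had 88.01, 37.8 and 192.3 CPM in F4/80hi YFP+ libraries and 3.01, 0.674, 4.67, 49.4 and 75.5 CPM in kidney cDC2, where replicates 4 and 5 were highest for both genes. Epcam had 7.77, 19.2 and 12.1 CPM in F4/80hi YFP- libraries and 5.26, 4.199 and 15.4 CPM in YFP+ libraries. The spleen cDC2 level of Epcam, 9.94 to 22.5 CPM, overlapped both. Krt7 had 9.61, 12.5 and 12.45 CPM in F4/80hi YFP- libraries, 8.44, 4.27 and 9.08 CPM in YFP+ libraries and 2.29 to 9.59 CPM in kidney cDC2. Napsa had 1279, 1581, 2855, 1468 and 1362 CPM in kidney cDC2, all above the 1104 to 1252 CPM of spleen cDC2, and 36.3 to 94.8 CPM over the 6 F4/80hi libraries. In TPM the cDC2 libraries of kidney (1186 to 1638) and spleen (1383 to 1573) overlapped for Napsa.

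The library prefix moved with the level of these genes in kidney dendritic cells. The dendritic cell libraries with more Y-linked reads than Xist, cDC2 replicate 3 and cDC1 replicate 4, are both GS. In cDC2 the sum without Napsa was 101 ± 32.8 CPM in the 2 BS libraries and 731 ± 506 CPM in the 3 GS libraries, which did not overlap; in cDC1 it was 92.8 ± 49.7 CPM in 3 BS and 610 ± 876 CPM in 3 GS libraries, which did. The model called 10 of the 31 genes as lower in BS libraries (Atp1b1, Egf, Fxyd2, Kng2, Krt7, Ldhb, Pvalb, Slc12a3, Umod and Wfdc15b) and 0 as higher, where 1.19% of all genes were called, 0.884% as lower and 0.309% as higher. Fxyd2 was lower by a log2 fold of -3.07 ± 0.52 (adjusted p = 0.01) and Umod by -5.75 ± 1.17 (adjusted p = 0.021). The count was 0 with the kidney dendritic cells fitted alone, 0 without cDC2 replicate 1 or without cDC1 replicate 4, 1 without cDC1 replicate 2, 4 without cDC2 replicate 2 or cDC1 replicate 1, and 5 without cDC1 replicate 3. Within BS libraries, the sum was 65.8 to 167 CPM in CD11bhi YFP+, 77.8 and 124 in cDC2 and 50.0 to 147 in cDC1. Within GS libraries it was 614 to 3063 CPM in F4/80hi cells, 223 to 1236 in cDC2 and 82.6 to 1621 in cDC1. Since no CD11bhi library is GS and no F4/80hi library is BS, gate and prefix cannot be told apart in the low level of CD11bhi cells.

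The proportions between tubule genes varied over a narrower range in F4/80hi libraries than in the other kidney libraries with at least 100 reads of a gene pair, where Calb1 reads per Slc12a3 read ran from 0.04 to 23.3 and Umod reads per Slc12a3 read from 0.188 to 29.6. Calb1 reads per Slc12a3 read ranged from 0.265 to 0.622 over the 6 F4/80hi libraries, and were 0.817 and 0.745 in kidney cDC2 replicates 4 and 5. Umod reads per Slc12a3 read ranged from 0.483 to 1.77 in F4/80hi libraries and were 0.392 and 0.263 in those cDC2 libraries. Kidney cDC1 replicate 4 had 29.6 Umod reads per Slc12a3 read (5175 against 175) with 7 reads of Calb1, and cDC2 replicate 3, which carries the same code in its name, had 14.1 (367 against 26) with 12 reads of Calb1. F4/80hi libraries of that code, replicate 1 of each YFP class, had ratios of 1.35 and 1.001. CD11bhi YFP+ replicate 4 showed another mix, with 186 reads of Calb1 against 8 of Slc12a3 and 2 of Umod, and 50.3 CPM of Klk1. Libraries differed in their mix of tubule genes as well as in the total; these ratios are read counts, not scaled for gene length.

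**Figure D4:**
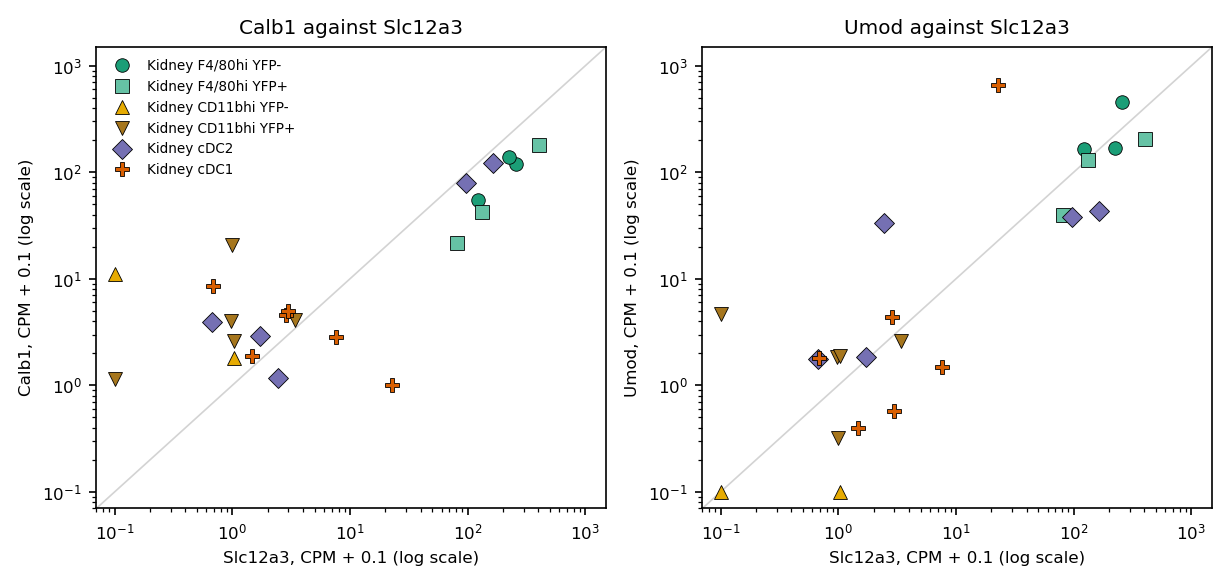
Calb1 (left) and Umod (right) against Slc12a3 in the 24 kidney libraries, as CPM + 0.1 on log axes, with the line of equal values in grey. F4/80hi libraries lie together at the upper right with cDC2 replicates 4 and 5, and kidney cDC1 replicate 4 stands alone at the top of the right panel with 665 CPM of Umod.

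Napsa, Gpx3, Aqp3 and Cxcl14 are described one by one. Napsa had a mean of 1709 ± 651 CPM in kidney cDC2, 799 ± 289 in kidney cDC1 and 882 ± 177 in CD11bhi YFP+ cells, but 63.1 ± 22.7 in F4/80hi YFP- cells. It did not pass the test between kidney and spleen in either dendritic cell type (0.75 ± 0.37 in cDC2, adjusted p = 0.125; 0.69 ± 0.37 in cDC1, adjusted p = 0.185). Gpx3 was between 12.6 and 76.6 CPM in every kidney library and did not pass the test between F4/80hi YFP- cells and RPM (-0.62 ± 0.40, adjusted p = 0.28). Aqp3, a water and glycerol channel, had 13.2, 12.3, 11.4, 11.05 and 5.11 CPM in kidney cDC2, and had 0 reads in all spleen libraries. Its highest cDC2 values lay in the BS libraries, where Umod, Egf and Slc12a3 had their lowest. In kidney cDC1 it had 0 to 1.22 CPM, in F4/80hi libraries 0 to 0.895 CPM, and in CD11bhi YFP- replicate 2 it had 10.4 CPM. Cxcl14, an epithelial chemokine, was highest in F4/80hi libraries, with 62.7, 22.8 and 4.75 CPM in YFP- and 77.1, 27.4 and 7.69 CPM in YFP+ libraries, where the order by library code was the same in both classes and replicate 1, with the lowest distal sum of the YFP- libraries, was highest. Every other kidney library had at most 4.32 CPM of Cxcl14.

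Napsa, Aqp3 and Cxcl14 were also called between kidney populations. In cDC1 against cDC2, 4 of the 31 genes were lower (Aqp3, Cxcl14, Napsa and Sfrp1) and 0 higher, where 15.7% of all genes were called, 10.2% as lower and 5.48% as higher. Aqp3 fell by 4.07 ± 1.09 on the log2 scale (adjusted p = 0.0064) and Sfrp1 by 4.13 ± 1.09 (adjusted p = 0.005), calls kept in every alternative. Napsa lost its call in 7 of 21 alternatives and Cxcl14, at a mean of 0.00997 CPM in cDC1 and 0.385 in cDC2, in 12 of 20. The count was 7 without the prefix term and 2 without cDC1 replicate 6. In F4/80hi YFP+ cells against cDC2, Cxcl14 (6.97 ± 1.41, adjusted p = 0.00054) and Fxyd2 (1.61 ± 0.57, adjusted p = 0.032) were higher, and Aqp3 (-4.57 ± 1.53, adjusted p = 0.027) and Napsa (-5.09 ± 0.45, adjusted p = 6e-10) were lower, 4 of 31 genes where 19.4% of all genes were called, 8.87% as higher and 10.5% as lower. Fxyd2 lost its call in 7 of 18 alternatives and Aqp3 in 3, and without cDC2 replicate 3 the count was 2. On the log2(TPM + 1) scale, limma called 12 genes, 10 higher and 2 lower. Umod, Egf, Calb1 and Slc12a1 had higher means in F4/80hi YFP+ cells than in cDC2 but did not pass the edgeR test (adjusted p of 0.47, 0.21, 0.56 and 0.16).

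**Figure D5:**
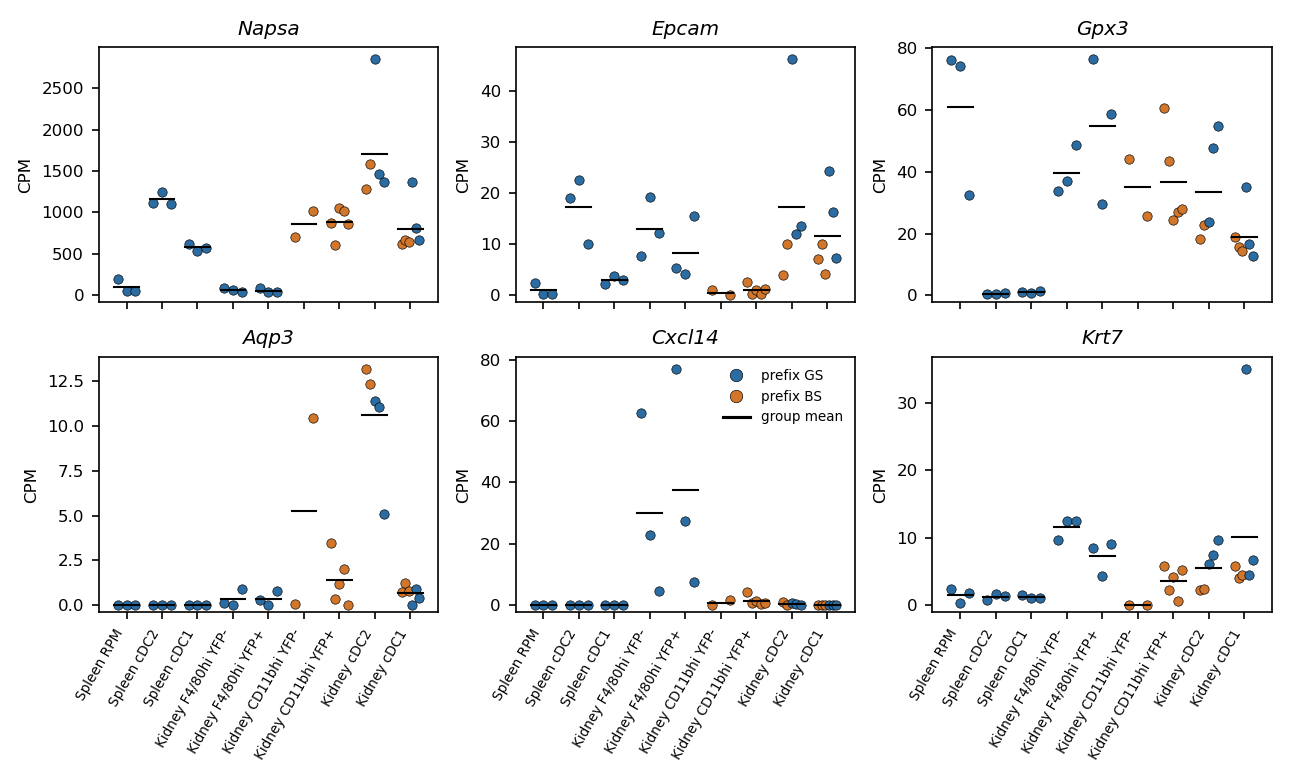
CPM per library (points, coloured by library prefix) and group mean (line) for 6 genes of the list, on linear axes that differ between panels. Aqp3 is found in all 5 kidney cDC2 libraries, Cxcl14 in F4/80hi libraries, and Napsa and Epcam also in spleen cDC2.

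CD11bhi YFP+ cells differed from kidney cDC2 in 1 of the 31 genes, where 2.51% of all genes were called, 1.05% as lower and 1.47% as higher. Epcam was lower in them by a log2 fold of -2.88 ± 0.73 (adjusted p = 0.02), with 0.199 to 2.57 CPM against 4.01 to 46.2 CPM in cDC2. This call was lost without CD11bhi YFP+ replicate 2, without cDC2 replicate 2 and with these groups fitted alone, where the count was 0; it was 5 without the prefix term. CD11bhi YFP+ cells differed from CD11bhi YFP- cells also in 1 gene, where 5.34% of all genes were called, 4.34% as higher. Krt7, a keratin of simple epithelia, had 5.85, 2.26, 4.16, 0.668 and 5.27 CPM in YFP+ libraries and no read in the 2 YFP- libraries, at least 40.2-fold higher (adjusted p = 0.0003). That call was lost with these groups fitted alone, where the count was 0, and without YFP+ replicate 4 the count was 2.

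F4/80hi YFP+ and YFP- cells, which differ in their history of Clec9a expression, gave 0 calls among the 31 genes by edgeR and 0 by DESeq2, and 0 of them had an unadjusted p under 0.05 in edgeR; 0.00701% of all genes were called, which is 1 gene, Slc6a12. The log2 fold was -1.06 ± 1.19 for Umod, -0.37 ± 1.001 for Egf, 0.04 ± 0.92 for Slc12a3 and 0.38 ± 0.62 for Fxyd2. With SEs of this size, the missed threshold does not show that the classes hold these genes alike.

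A second list of 61 tubule genes, none of them among the 33, was read in the same way; it was also drawn up with earlier results known. Of its 48 tested genes, 25 were higher and 2 lower in F4/80hi YFP- cells than in RPM, 21 higher and 1 lower in kidney than in spleen cDC2, and 18 higher and 0 lower in kidney than in spleen cDC1. Over all genes tested, 11.1% were called higher and 9.02% lower in the first of these comparisons, 11.9% and 6.9% in the second, and 6.66% and 4.45% in the last. The counts leave out listed genes with too few reads to test. A gene without spleen reads passed the low-count filter through the kidney groups where it is high, so these counts too describe the list. The called genes with the largest fitted folds in F4/80hi YFP- cells were Tmem213 (mean 23.1 CPM, at least 335-fold above RPM, adjusted p = 1.14e-05), Tmem52b (86.4 CPM, adjusted p = 7.61e-06) and Cldn8, a claudin of the distal nephron (15.8 CPM, at least 229-fold, adjusted p = 0.00125). In kidney cDC2 they included Tmem213 (at least 119-fold above spleen cDC2) and Mal (at least 88.9-fold), and in kidney cDC1 Tmem213 (at least 86.1-fold above spleen cDC1) and Wfdc2 (at least 77.4-fold). Slc5a2, the glucose transporter of the early proximal tubule, had a mean of 0.0718 CPM over the 6 F4/80hi libraries; it and the potassium channel gene Kcnj16, which reached 320.5 CPM in the spleen and 22.8 CPM in the kidney, were picked after their values were seen. Between kidney populations other genes of the list were called: Ptger3, a prostaglandin E2 receptor (-3.67 ± 0.87), and Slc13a3, a dicarboxylate transporter (-3.30 ± 0.66), were lower and Gatm, an enzyme of creatine synthesis (2.34 ± 0.20), higher in cDC1 than in cDC2, while Slc13a3 (4.82 ± 0.695) and Gatm (3.06 ± 0.25) were higher and Ptger3 (-3.21 ± 1.14) lower in F4/80hi YFP+ cells than in cDC2. Spint2, a protease inhibitor, was lower in CD11bhi YFP+ cells than in cDC2 (-2.24 ± 0.53). These genes were also seen in spleen cells. Gatm reached 275.5 CPM in a spleen library, Spint2 212.6, Ptger3 87.3 and Slc13a3 32.6. Ptger3 reached only 37.1 CPM in the kidney.

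Over the 24 kidney libraries, the 10 genes outside the list whose log2 CPM followed the summed 33 genes most closely were Cldn10 (Pearson r = 0.825), Arhgef17, Dusp15, Prr15l, D630024D03Rik, Id4, Antxr1, Mgst3, Cobl and Nr0b2 (0.756). With Napsa left out of the sum, a choice made after its values were seen, they included Tmem72 (0.965), Kcnj16, Rnf208, Prss23, Nol3, 2610528J11Rik, Ephb4, Lhx1os and Mme (0.944). Over the 11 kidney dendritic cell libraries alone they were Abhd14b (0.974), Gm16897, Lbh, Cldn10, Lxn, 4930413G21Rik, Cd74, Dedd2, Orai1 and H2-Aa (0.945) with all 33 genes, and 2610528J11Rik (0.969), Mal, Spsb4, Mme, Wfdc2, Nr0b2, Tmem178, Fam189a2, Ephb4 and Tmem35 (0.944) without Napsa. The lists thus depend on whether Napsa is in the sum. These correlations describe libraries that share groups, prefix and depth, and the genes were ranked over all those tested.

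Markers of other cell types were read beside these results. The 12 endothelial markers summed to 81.2 to 101 CPM in F4/80hi YFP- and 80.4 to 156 CPM in F4/80hi YFP+ libraries, against 272.5 to 411 CPM in RPM; the defining gene Cdh5 had a mean of 0.224 CPM in F4/80hi YFP- cells, and Eng and Pecam1 held most of the sum. The 8 fibroblast markers summed to 1.07 to 3.72 CPM in F4/80hi YFP- libraries and to at most 11.6 CPM in any kidney library. The 7 podocyte markers summed to 957.2 to 1147 CPM in F4/80hi YFP- libraries and to 1066 to 1295 CPM in RPM. Among these markers, Nphs1 had no read in F4/80hi YFP- libraries. The 6 T and NK cell markers found in the files summed to 8.02 to 61.9 CPM in kidney cDC2 against 1.68 to 2.10 CPM in spleen cDC2, to 3.31 to 26.9 CPM in kidney cDC1 against 0.462 to 1.38 CPM in spleen cDC1, and to 3.10 to 10.9 CPM in F4/80hi YFP- libraries against 0.714 to 2.53 CPM in RPM. They reached 22.6 to 51.2 CPM in CD11bhi YFP+ cells, where tubule genes were low; Cd3e, a T cell receptor subunit, had a mean of 13.9 CPM there and 11.9 CPM in kidney cDC2. The part of these cell types in the tubule reads was not tested.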

How the data were processed

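The 33 libraries were made from polyA RNA of sorted cells with the PicoPure, SMARTseq v4 and MicroPlex kits, without strand information, per the labels. The submitters' processing notes name STAR, RSEM and the mm10 build; versions are not given in the sources used here. The main values are the read counts for 24054 symbols that the authors deposited for each library, made with STAR. Expected counts come from RSEM as deposited by the authors and were rounded for the alternative that uses them. TPM values, from RSEM too, were deposited for each library and in a joint table that differed from the library files by 0 over 24027 genes. 

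Unstranded counts were tested with edgeR 4.0.16 in R 4.3.3 (quasi-likelihood test, TMM, filterByExpr with a minimum count of 10 and a minimum total of 15) in 1 model of all 33 libraries, with a term per group and for the library prefix. Adjusted p-values are Benjamini-Hochberg over 14258 genes; calls needed an adjusted p under 0.05 together with a log2 change of 1 or more in either direction. Folds against a group without reads are lower bounds that set the group to 3 counts in all. The SE of an edgeR fold is the absolute log2 fold divided by the square root of the F statistic. It is worked back from the test and is not a separate estimate of the fit. Intervals and floors cover counting error only, since PCR copies cannot be told apart. The script was tested on simulated data. All 33 genes are named; values by library, range or group mean are given for the 10 with the highest kidney mean and those with at least 1 CPM in a spleen group, and for others after their values were seen. Some genes of the lists outside the 33 are not reported here. The genes, lists and tests were chosen with earlier results of these data known. 

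Replicate numbers follow the order of deposit. Codes in the library names pair libraries where all 3 pairs' residuals correlated above 0.1, as in kidney against spleen cDC2 (0.101 to 0.124) and F4/80hi YFP+ against YFP- (0.112 to 0.426); elsewhere at least 1 pair did not. Alternatives used DESeq2 1.42.0 and limma 3.58.1 on log2(TPM + 1) and log2(TPM + 0.1), other filters and models, and left out each library in turn.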

Additional observations from a re-analysis of the deposited data

Results flagged for a closer look

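In groups of 4 to 10 libraries, a library was listed here when its gap to the nearest other library exceeded Dixon's 95% critical value, which chance does in about 1 of 20 groups; 19 of 41 were listed, and they fall mostly on 2 libraries. Kidney cDC1 replicate 4 stood above the other 5 libraries in Umod (665 CPM, others 0.299 to 4.27), Egf (127.7, others at most 2.79), Fxyd2 (114.0, others at most 20.8), Ldhb (75.0, others at most 4.61), Atp1b1 (59.5, others at most 7.51), Gpx3 (35.2, others at most 18.9), Krt7 (35.1, others at most 6.67), Slc12a3 (22.5, others at most 7.45), Napsa (1373, others at most 817) and the sum without Napsa (1621, others at most 147).

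CD11bhi YFP+ replicate 4 stood above the other 4 libraries in Klk1 (50.3 CPM, others at most 15.2), Calb1 (20.7, others at most 3.97), Atp1b1 (14.6, others at most 3.91), Ldhb (13.7, others at most 4.87) and Aqp1 (0.779, others 0). It is also the library with 64.0% of its reads outside genes; the part of that share was not tested. CD11bhi YFP+ replicate 3 stood above the rest in Slc12a3 (3.34 CPM, others at most 0.930). In kidney cDC2, replicate 3 had the highest Epcam (46.2 CPM, others at most 13.5) and Napsa (2855, others at most 1581), and replicate 4 the highest Aqp1 (0.336, others at most 0.0899).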

How the results depend on the processing

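The count of genes called was within 1.5 times its reported value under the alternatives not named here. On the log2(TPM + 1) scale it was 12 in kidney against spleen cDC1, 2 in kidney cDC1 against cDC2, 12 in F4/80hi YFP+ against cDC2 (10 higher, 2 lower) and 2 in CD11bhi YFP+ against cDC2; on the log2(TPM + 0.1) scale it was 2 in the last and 6 for the library prefix. Without the prefix term it was 7 in cDC1 against cDC2 and 5 in CD11bhi YFP+ against cDC2. With only the groups compared in the fit it was 0 in CD11bhi YFP+ against cDC2, 0 in CD11bhi YFP+ against YFP- and 0 for the prefix. DESeq2 gave 3 in CD11bhi YFP+ against YFP-. The cause was not tested.

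Leaving out a library at a time gave 12 to 21 in kidney against spleen cDC1, 17 to 23 in cDC2, 20 to 24 in F4/80hi YFP- against RPM, 2 to 4 in cDC1 against cDC2, 2 to 5 in F4/80hi YFP+ against cDC2, 0 to 1 in CD11bhi YFP+ against cDC2, 0 to 13 for the prefix, 1 to 2 between the CD11bhi classes and 0 to 0 between the F4/80hi classes. The block by library code gave 18 in kidney against spleen cDC1, 23 in cDC2, 24 in F4/80hi YFP- against RPM, 5 in cDC1 against cDC2, 3 in F4/80hi YFP+ against cDC2, 1 and 1 for CD11bhi YFP+ and 0 in F4/80hi YFP+ against YFP-, and moved no count by over 1.5 times. The 87 calls of the main fit were followed through the alternatives: 1299 results kept the call, 216 lost it and 0 changed direction. Calls gained in an alternative are not in these counts. The alternative without a fold threshold could only keep calls. With genes of at least 1 CPM in a spleen group left out, the sum was 1025 CPM in F4/80hi YFP- libraries and 1.04 in RPM. The low RPM sum follows from that choice of genes and is a description. Most tubule genes had few spleen reads, which limits the precision of folds against the spleen for those genes.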

Other observations

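Nphs1, which encodes the podocyte protein nephrin, had 1.63, 0 and 0.978 CPM in the 3 F4/80hi YFP+ libraries and 0 in the 3 YFP- libraries, and did not pass the test between them (edgeR, adjusted p = 1). Over the group, Ehd3, a gene of glomerular endothelium, had 426 reads in F4/80hi YFP+ and 27 in YFP- libraries, and 197 in CD11bhi YFP+ libraries. These genes were singled out after their values were seen.

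Slc6a12, a betaine and GABA transporter gene known from the kidney medulla, was the gene called between F4/80hi YFP+ and YFP- cells, with 28.3, 17.9 and 20.2 CPM in YFP+ and 0.680, 1.40 and 2.06 CPM in YFP- libraries (3.97 ± 0.63 on the log2 scale, adjusted p = 0.0107). It reached 49.4 CPM among the libraries of the other groups. The Slc6a12 call was lost without each YFP- library in turn, without YFP+ replicate 1 and with these groups fitted alone. In each of those fits no gene was called.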
